A study of Mus musculus with 9 samples.

Results

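The 42 genes described here carry out mitosis and chromosome segregation. They were chosen by gene symbol, under a rule that uses no measured value, though with earlier results of these data known. They run from the cyclins and kinases that start mitosis to the proteins that separate the daughter cells. All 42 were found among the 38215 gene rows of the table, and all 42 were among the 14944 genes with enough counts to be tested. RNA was sequenced from LSK cells (Lineage- Sca1+ Kit+, the bone marrow fraction that holds blood stem cells and early progenitors) of C57BL/6J mice at the terminal time point. All animals carried Jak2V617F, the activating Janus kinase allele of myeloproliferative neoplasms, and all were treated with tamoxifen. The sorted cells were positive for both GFP and mCherry, and the comparison is of 5 libraries of genotype Jak2V617F with EV in their titles against 4 libraries of genotype Jak2V617F with sgZrsr2. Zrsr2 is a splicing factor of the minor spliceosome, and the question the design puts is what its loss adds to Jak2V617F. The labels give no age, spell out neither EV nor sg, and do not name the promoter behind either fluorescent marker or the construct on which tamoxifen acts. Libraries are called here by group and by the number in their title, taken as mouse 1 to 5 in EV and mouse 1, 2, 3 and 5 in sgZrsr2. No label says more on how separately the samples were prepared, so p-values measure the spread between these samples only.

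Dividing cells raise most of these transcripts in G2 and mitosis. Cyclin B with Cdk1 opens mitosis, the kinetochore ties each centromere to the spindle, and the spindle checkpoint holds back Cdc20 and the anaphase-promoting complex until every chromosome is attached. Separase then cuts the cohesin rings, the chromosomal passenger complex moves to the midzone, and the contractile ring divides the cell. Most adult blood stem cells rest outside the cycle while early progenitors divide, so in sorted LSK RNA the level of these genes depends both on how many cells divide and on how much of each transcript a dividing cell holds. Fewer cells of a type and less RNA per cell cannot be told apart in bulk libraries.

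Transcription of this gene class is known to depend on CCAAT boxes, the sites of the factor NF-Y, and on a short element near the start site, the CHR (cell cycle genes homology region), bound by the MuvB complexes. A RefSeq promoter of build GRCm38.p6, 250 bases before to 50 bases after the gene start, was at hand for 36 of the 42 genes. The 6 genes without an entry were Kif20a, Smc4, Tpx2, Aurkb, Ccna2 and Incenp. The CHR hexamers TTTGAA or TTTAAA, searched on both strands, were present in 30 of the 36 (83.3%), against 27.8% of the 27025 genes with a promoter of that length. TTTGAA alone was in 27 of the 36 (75%, against 18.1%), and TTTAAA was in 9 (25%, against 13.2%). With the hexamer required to begin within 50 bases of the start, the counts were 26 of 36 (72.2%) and 8.24% of all genes. CCAAT, read as ATTGG on the opposite strand, was in 28 of 36 (77.8%) against 37.9%, and 19 of the 36 (52.8%) held 2 or more against 12.2%. A CCAAT together with a CHR hexamer stood in 26 of 36 (72.2%) against 10.9%. These are letter matches only, and matches of the motifs can overlap.

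The stretch from 160 bases before to 25 bases after the start is printed for 6 genes: 3 of those that were lowest in EV mouse 3 (Plk1, Hmmr and Cenpf), the pair that was lowest in sgZrsr2 mouse 3 (Cdk1 and Ncapg), and Cdca8, the gene with the smallest p between the groups. Capitals mark CCAAT or ATTGG and TTTGAA or TTTAAA. The stretches are Plk1 at chr7:122159275-122159459 on the plus strand, Hmmr at chr11:40733413-40733597 on the minus strand, Cenpf at chr1:189688062-189688246 on the minus strand, Cdk1 at chr10:69352888-69353072 on the minus strand, Ncapg at chr5:45669765-45669949 on the plus strand and Cdca8 at chr4:124936893-124937077 on the minus strand.
Plk1: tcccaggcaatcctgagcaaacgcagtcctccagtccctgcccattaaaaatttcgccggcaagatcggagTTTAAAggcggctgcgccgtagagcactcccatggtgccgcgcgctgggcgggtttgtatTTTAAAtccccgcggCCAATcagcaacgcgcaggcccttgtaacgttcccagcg
Hmmr: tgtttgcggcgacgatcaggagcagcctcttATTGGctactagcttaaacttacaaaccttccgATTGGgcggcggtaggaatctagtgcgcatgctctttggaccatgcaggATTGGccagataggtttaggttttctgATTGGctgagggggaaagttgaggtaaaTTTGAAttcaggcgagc
Cenpf: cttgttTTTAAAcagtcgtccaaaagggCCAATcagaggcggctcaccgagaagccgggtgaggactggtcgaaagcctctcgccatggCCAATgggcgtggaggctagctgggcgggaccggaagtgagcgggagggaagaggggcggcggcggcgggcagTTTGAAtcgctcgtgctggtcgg
Cdk1: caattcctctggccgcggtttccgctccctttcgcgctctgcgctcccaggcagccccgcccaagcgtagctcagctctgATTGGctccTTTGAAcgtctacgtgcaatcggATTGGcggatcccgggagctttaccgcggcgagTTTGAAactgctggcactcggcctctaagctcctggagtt
Ncapg: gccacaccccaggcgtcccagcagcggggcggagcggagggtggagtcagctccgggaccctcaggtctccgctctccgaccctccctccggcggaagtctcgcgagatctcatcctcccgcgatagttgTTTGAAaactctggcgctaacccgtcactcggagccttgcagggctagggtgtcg
Cdca8: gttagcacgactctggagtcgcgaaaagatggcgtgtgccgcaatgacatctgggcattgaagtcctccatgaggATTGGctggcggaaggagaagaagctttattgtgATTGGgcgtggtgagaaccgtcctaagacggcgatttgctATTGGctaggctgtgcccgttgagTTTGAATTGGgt
The Hmmr and Cdk1 stretches carry their CCAAT boxes as ATTGG, and the last capitals of the Cdca8 stretch are an overlap of a CHR hexamer with ATTGG. The RefSeq start lay within 50 bases of the start in the deposited table for 30 of the 36 genes, including the other 5 printed, but 2394 bases inside the gene for Cdca8 and 3867 bases inside it for Kif2c. For Cdca8 the printed stretch is therefore the promoter of the RefSeq start only. In the Ncapg stretch a single TTTGAA is marked and no CCAAT. Some matches lie outside the printed stretches. Ncapg has an ATTGG at positions -176 to -172 from the start, Hmmr at -172 to -168 and Cdk1 at -208 to -204. The only TTTGAA of Plk1 is at positions 31 to 36 after the start. The plot of motif positions covers the matches in the promoters of all 36 genes.

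**Figure D1:**
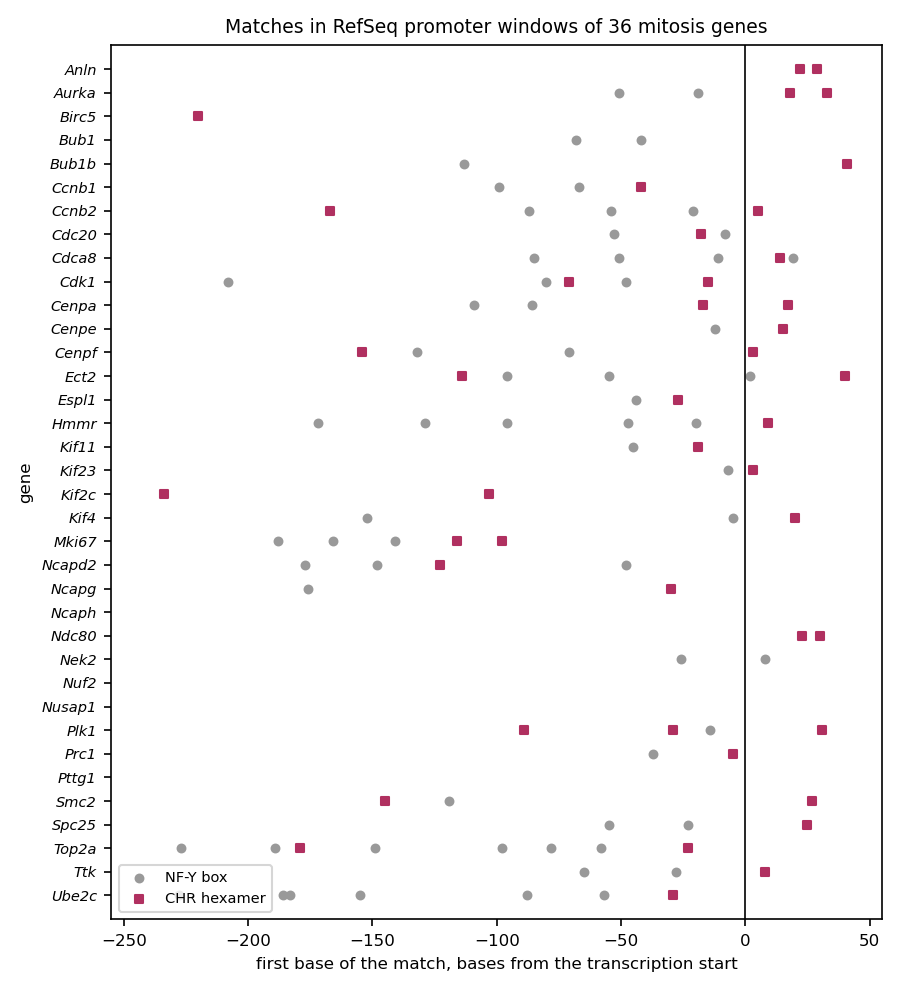
Positions of CHR hexamers and CCAAT boxes (NF-Y box) in the promoters of the 36 genes with a RefSeq entry, as distance in bases from the gene start on the x axis, 1 gene per line. CHR hexamers gather around the start, where 26 of the 36 genes have one beginning within 50 bases.

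The 9 libraries held 23238264 to 45585531 expected counts, and levels are given as CPM after TMM scaling. Values by library stand in order of mouse number, which is 1 to 5 for EV and 1, 2, 3 and 5 for sgZrsr2. Adjusted p are those of edgeR's quasi-likelihood test over all 14944 genes. No member was at 0 in any library, and the lowest count was 209, for Pttg1. Zrsr2 itself was at 50.6, 51.9, 62.2, 51.7 and 50.7 CPM in EV and at 39.4, 44.4, 40.0 and 31.7 CPM in sgZrsr2, so it was lower in every sgZrsr2 library but present in all (log2 fold change -0.46, SE 0.12, adjusted p = 0.714). Over the 2396 most abundant genes, the closest pairs of libraries were EV mice 1 and 2, then mouse 5 of each group, then sgZrsr2 mice 1 and 2, with an SD of the log2 difference of 0.17, 0.20 and 0.25, against 0.30 to 0.75 for the other pairs. None of 15 LSK and stem cell markers was at 0 counts in any library, which by itself does not verify the sort. Kit was at 247 to 632 CPM and Ly6a, which encodes Sca1, at 14.8 to 49.3 CPM. The libraries of EV mouse 5, sgZrsr2 mouse 3 and sgZrsr2 mouse 5 stood apart in the mean log2 level of 15 erythroid markers. They are called below the libraries with erythroid transcripts. In them Car1 was at 25.4, 39.3 and 35.5 CPM against at most 0.422 CPM in the other 6 libraries. Not every marker of the list went this way. Hbb-bt was at 8.06, 15.4 and 5.59 CPM in them against 13.5 to 46.2 CPM elsewhere. Tfrc was highest in EV mouse 3, at 486 CPM. The mean log2 level of the 15 erythroid markers was 2.86, 4.11 and 2.97 in those 3 libraries and 0.91 to 1.17 in the others. Their summed level was 364.7, 549.5 and 369.1 CPM there and 269.9 to 512.9 CPM in the others. Among the others, EV mouse 3 had the highest sum. The 15 megakaryocyte markers had mean log2 levels of 2.71, 2.996 and 3.26 in the same 3 libraries and 1.37 to 1.79 in the others. The 15 lymphoid markers were highest in EV mouse 1, at a mean log2 level of 2.69 against 0.90 to 2.04 elsewhere. Of the defining genes of other lineages, the T cell gene Cd3e (at most 0.0873 CPM), the neutrophil gene Ly6g (at most 0.0557 CPM) and the platelet gene Gp6 (at most 0.0291 CPM) were at or near 0. Other markers on the same lists were present, with Dntt at 51.0 to 281 CPM, Itga2b at 109 to 319 CPM, Csf1r at 53.2 to 137 CPM and Ly6c2 at 42.2 to 212 CPM. The neutrophil granule gene Ngp ranged from 0.0663 to 53.2 CPM and Vwf from 4.64 to 91.2 CPM.

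Transcript levels differed widely among the mitotic genes. Per kilobase of merged exons and averaged over all 9 libraries, the highest levels were those of Mki67 (70.3 CPM per kb), Top2a (56.0), Ncapd2 (55.7), Smc4 (53.2) and Cdc20 (46.3). At the other end stood Ndc80 (4.96 CPM per kb), Pttg1 (5.20) and Ttk (5.29). Between the lowest and the highest of the 9 libraries the genes varied from 1.29-fold for Pttg1 to 2.90-fold for Plk1, with Cenpf (2.89), Kif2c (2.87) and Hmmr (2.82) next to Plk1. The sources used here do not say whether counting used strand. Opposite-strand genes of low mean count left aside, 7 members overlap a gene on the opposite strand, so that reads of the pair could be mixed. These are Ccna2 with Exosc9, Cdc20 with Elovl1 (mean counts 3113 and 2656), Cdca8 with 9930104L06Rik (2986 and 803), Kif4 with Pdzd11, Nusap1 with Oip5, Kif20a with Cdc23 (2409 and 2699) and Ncapg with Lcorl (2835 and 897). The members named at the ends of an ordering, here and further on, were chosen after their values were seen unless they also belong to the genes named by rule.

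Between the groups, most mitotic genes had an estimate slightly below 0 with sgZrsr2, and no single gene passed the test adjusted over all genes. The log2 fold change of sgZrsr2 against EV was below 0 for 34 of the 42 (81.0%, against 51.5% of all genes tested) and above 0 for 8. The median was -0.10, against -0.01 over all genes, and the range was -0.27 to 0.095, so every estimate was a change of well under 1 log2 unit. At an unadjusted p under 0.05 in edgeR's quasi-likelihood test, 2 of 42 were lower (4.76%, against 2.98% of all genes), namely Cdca8 and Birc5, and 0 were higher (against 3.87%). In either direction this was 4.76% of the members against 6.85% of all genes. No member passed an adjusted p of 0.05; the smallest was 0.714, and 0% of all genes passed. In 1 member, Birc5, every sgZrsr2 library was below every EV library (2.38%, against 1.32% of all genes), and none had the reverse order (against 1.75%), which makes 1 in either direction against 3.06%. The signs of the 42 genes are not separate observations, since many of the genes rose and fell together across the 9 libraries. The correlation of a gene with the mean of the other members ran from -0.163 for Smc2 to 0.945 for Ttk. Without EV mouse 2 the number of members below 0 was 22 (50% of all genes were below 0 in that fit) and the median was -0.01. Without EV mouse 3 these were 39 (52.5% of all genes) and -0.17. Beside this, the marker lists had fold changes of their own between the groups. Of the megakaryocyte markers tested 13 of 13 were above 0 (median 1.14), of the erythroid markers 10 of 11 (median 1.40) and of the LSK and stem cell markers 12 of 15 (median 0.18, with 3 higher at an unadjusted p under 0.05, which is 20% against 3.87% of all genes), while 10 of 11 lymphoid markers were below 0 (median -0.98) and the neutrophil and monocyte markers were split at 8 above and 6 below. The erythroid and megakaryocyte mean levels were high only in sgZrsr2 mice 3 and 5 and in EV mouse 5. In sgZrsr2 mice 1 and 2 both means lay near those of the other EV libraries. These higher estimates were therefore not shared by all sgZrsr2 libraries. No marker passed an adjusted p of 0.05. Their part in the levels of the mitotic genes was not tested.

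**Figure D2:**
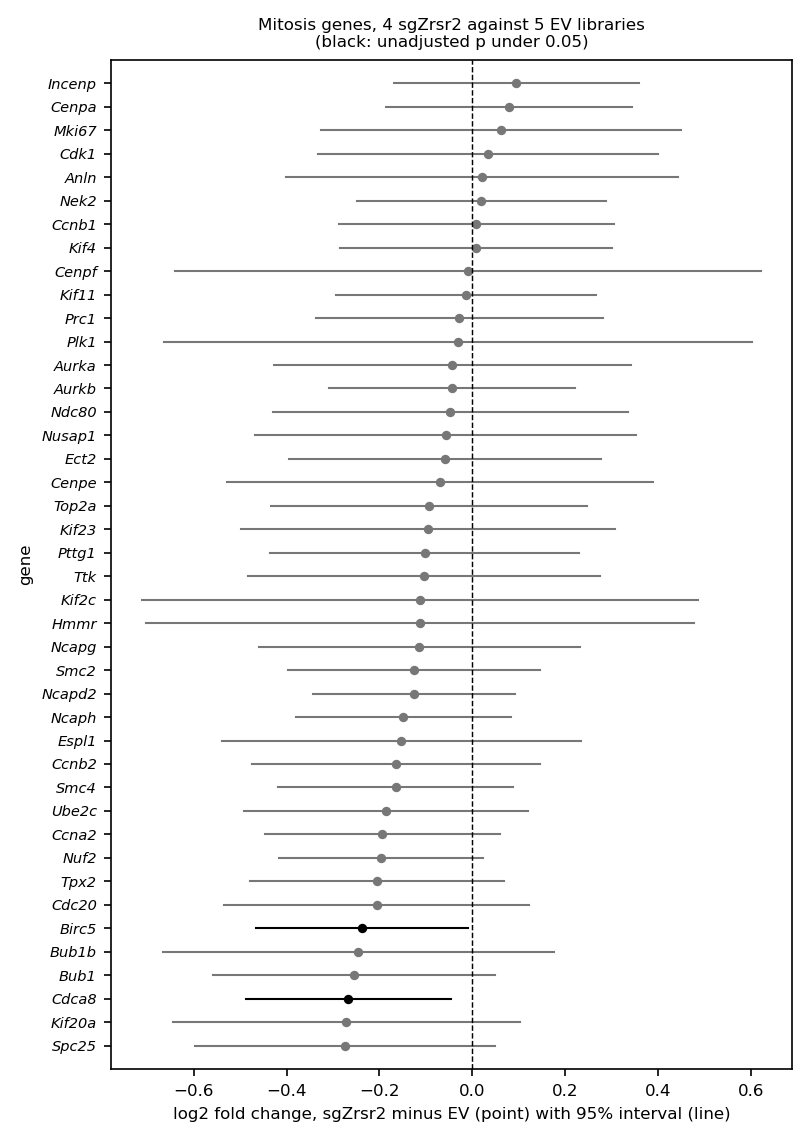
Log2 fold change of sgZrsr2 against EV for the 42 genes with 95% confidence intervals, from the fit across all 14944 genes (n = 5 and 4 libraries), ordered by fold change. Most points lie left of 0, and the intervals of Cdca8 and Birc5 are those that stay below it.

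Of the 7 cyclins and mitotic kinases, 4 were below 0 and 3 above, with a median of -0.03. Cdk1, the kinase that drives entry into mitosis, was at 74.1, 85.0, 94.8, 87.1 and 94.2 CPM in EV and at 114, 102, 62.9 and 78.0 CPM in sgZrsr2. Both its highest library, sgZrsr2 mouse 1, and its lowest, sgZrsr2 mouse 3, were in the same group (log2 fold change 0.033, SE 0.17, adjusted p = 0.965). Ccnb1, the cyclin B1 partner of Cdk1, was at 78.1, 96.5, 66.0, 91.0 and 89.6 CPM in EV and at 95.6, 81.4, 71.5 and 90.6 CPM in sgZrsr2. The groups overlapped throughout, with EV mouse 3 lowest and EV mouse 2 highest (log2 fold change 0.0088, SE 0.13, adjusted p = 0.988, and log2 fold change -0.0015 with upper-quartile scaling). Plk1, the Polo kinase active from mitotic entry to cytokinesis, had 58.7, 73.6, 25.3, 55.1 and 69.4 CPM in EV and 46.9, 38.0, 62.9 and 73.0 CPM in sgZrsr2. The library of EV mouse 3 was far below all others, and the fold change was near 0 with a wide interval (log2 -0.031, 95% confidence interval -0.66 to 0.60). Ccna2, the S and G2 phase cyclin A2, had the smallest p of this group, at 148, 167, 163, 171 and 153 CPM in EV and 158, 149, 113 and 139.7 CPM in sgZrsr2. Only sgZrsr2 mice 3 and 5 lay below the lowest EV library (log2 fold change -0.19, SE 0.11, adjusted p = 0.721). Without sgZrsr2 mouse 3 it was -0.10.

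All 3 genes of the spindle checkpoint had fold changes below 0, with a median of -0.25, the lowest of the 8 roles. Bub1, a checkpoint kinase at the kinetochore, was at 59.6, 61.6, 49.3, 53.1 and 48.7 CPM in EV and at 49.0, 54.1, 35.4 and 44.0 CPM in sgZrsr2. Its lowest libraries were sgZrsr2 mice 3 and 5, while sgZrsr2 mice 1 and 2 lay within the EV range (log2 fold change -0.25, SE 0.14, adjusted p = 0.714). Bub1b, which encodes the checkpoint inhibitor BubR1, was at 127, 152, 78.5, 117 and 134 CPM in EV and at 83.7, 90.8, 106 and 129 CPM in sgZrsr2. Lowest of the 9 was EV mouse 3, and sgZrsr2 mice 1 and 2 came next (log2 fold change -0.25, SE 0.19, adjusted p = 0.757). Without EV mouse 3 its log2 fold change was -0.37. Without EV mouse 2 it was -0.15, and Bub1 was at -0.15 without sgZrsr2 mouse 3. Ttk, the checkpoint kinase Mps1, had a log2 fold change of -0.10 (95% confidence interval -0.48 to 0.27).

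The 4 genes of the anaphase-promoting complex and separase step were also all below 0, with a median of -0.17. Cdc20, the activator that the checkpoint restrains, was at 93.4, 109, 66.3, 103 and 87.9 CPM in EV and at 75.6, 70.6, 79.1 and 93.2 CPM in sgZrsr2. Again EV mouse 3 was the lowest of all libraries, and the other EV libraries lay above all of sgZrsr2 but mouse 5 (log2 fold change -0.21, SE 0.15, adjusted p = 0.744). The log2 fold change was -0.31 without EV mouse 3 and -0.14 without EV mouse 2. Pttg1, the securin that keeps separase inactive, was at 10.5, 11.1, 10.3, 11.4 and 10.3 CPM in EV and at 9.30, 11.9, 9.49 and 9.27 CPM in sgZrsr2. Of these, sgZrsr2 mouse 2 was the highest of all 9 libraries and the other sgZrsr2 libraries were the lowest (log2 fold change -0.10, SE 0.15, adjusted p = 0.869). Ube2c, the ubiquitin-conjugating enzyme of the complex, and Espl1, separase itself, had log2 fold changes of -0.19 and -0.15, with intervals of -0.49 to 0.12 and -0.54 to 0.23.

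Among the 6 centromere and kinetochore genes, 5 were below 0 and the median was -0.06. Cenpa, the histone H3 variant that marks centromeres, was at 75.6, 78.6, 54.0, 66.7 and 70.9 CPM in EV and at 79.4, 73.7, 67.8 and 71.1 CPM in sgZrsr2. It was lowest in EV mouse 3, and the remaining libraries of both groups were interleaved (log2 fold change 0.078, SE 0.12, adjusted p = 0.875). The NDC80 complex, which grips spindle microtubules, is built of Ndc80, Nuf2, Spc24 and Spc25, and its subunits had unequal estimates. Ndc80 was at 37.9, 39.1, 22.5, 32.4 and 31.3 CPM in EV and at 37.5, 29.9, 26.5 and 32.6 CPM in sgZrsr2, again lowest in EV mouse 3 (log2 fold change -0.047, SE 0.17, adjusted p = 0.953). Nuf2 was at 49.4, 52.8, 45.3, 51.7 and 51.5 CPM in EV and at 43.3, 47.4, 38.8 and 45.5 CPM in sgZrsr2. For Nuf2, sgZrsr2 mice 1 and 3 lay below all of EV, and sgZrsr2 mice 2 and 5 lay between EV mouse 3 and the other EV libraries (log2 fold change -0.20, SE 0.10, adjusted p = 0.714). A two-sided exact permutation test over the 126 ways to divide the libraries gave p = 0.0476 for Nuf2, where the smallest possible is 0.0159. Nuf2, Cdca8 and Birc5 were the 3 of 42 members with an exact permutation p under 0.05 before any adjustment. All 3 were lower, which is 7.14% of the members against 3.59% of all genes (4.3% of all genes were higher by this rule). Spc25 had a log2 fold change of -0.27 (95% confidence interval -0.60 to 0.049). Spc24, not one of the 42 but on the list of other mitosis genes, was at 44.7, 49.9, 44.7, 62.4 and 49.2 CPM in EV and at 38.8, 33.4, 29.3 and 38.6 CPM in sgZrsr2. Every sgZrsr2 library was below every EV library for Spc24 (log2 fold change -0.52, SE 0.14, adjusted p = 0.714).

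The chromosomal passenger complex held both members with an unadjusted p under 0.05, and its other subunits had estimates near or above 0. Cdca8 (ENSMUSG00000028873, chromosome 4, 124918465 to 124939311, minus strand, GRCm38), which encodes borealin, was at 91.3, 97.1, 80.4, 96.9 and 86.5 CPM in EV and at 74.4, 70.8, 71.1 and 84.2 CPM in sgZrsr2. The means were 90.4 ± 7.13 CPM in EV (SD, n = 5) and 75.1 ± 6.28 CPM in sgZrsr2 (SD, n = 4); sgZrsr2 mouse 5 lay above EV mouse 3, and the other 3 sgZrsr2 libraries lay below all of EV. edgeR gave log2 fold change -0.27, SE 0.10, adjusted p = 0.714 and an unadjusted p of 0.0221, and the exact permutation test gave p = 0.0318. Birc5 (ENSMUSG00000017716, chromosome 11, 117849251 to 117855743, plus strand, GRCm38), which encodes survivin, was at 66.7, 79.2, 69.0, 81.2 and 70.2 CPM in EV and at 66.6, 62.6, 54.7 and 64.6 CPM in sgZrsr2. The means were 73.3 ± 6.50 CPM in EV (SD, n = 5) and 62.1 ± 5.24 CPM in sgZrsr2 (SD, n = 4), and the groups did not overlap, though EV mouse 1 and sgZrsr2 mouse 1 were nearly equal. For Birc5 edgeR gave log2 fold change -0.24, SE 0.10, adjusted p = 0.714 and an unadjusted p of 0.0424, and the exact permutation p was 0.0159, the smallest these group sizes allow. Aurkb, the kinase of the complex, was at 111, 133, 116, 113 and 127 CPM in EV and at 129.6, 116, 92.9 and 128 CPM in sgZrsr2. Apart from a low value in sgZrsr2 mouse 3 its groups overlapped fully (log2 fold change -0.044, SE 0.12, adjusted p = 0.931). Incenp, the scaffold that joins the kinase to the other subunits, had a log2 fold change of 0.095 (95% confidence interval -0.17 to 0.36).

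The calls on Cdca8 and Birc5 depended on single libraries. The unadjusted p of Cdca8 was 0.0552 without EV mouse 2, 0.0606 without sgZrsr2 mouse 2 and 0.0563 without sgZrsr2 mouse 3, and under 0.05 with any other 1 library left out. Birc5 lost its call without EV mouse 2 (0.1), EV mouse 4 (0.0881), EV mouse 5 (0.0547), sgZrsr2 mouse 2 (0.0691), sgZrsr2 mouse 3 (0.12) or sgZrsr2 mouse 5 (0.0560). With sgZrsr2 mice 1 and 2 averaged the values were 0.0520 and 0.0519. Without the 3 libraries with erythroid transcripts they were 0.0390 and 0.208, and without mouse 3 of both groups 0.0237 and 0.0879.

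**Figure D3:**
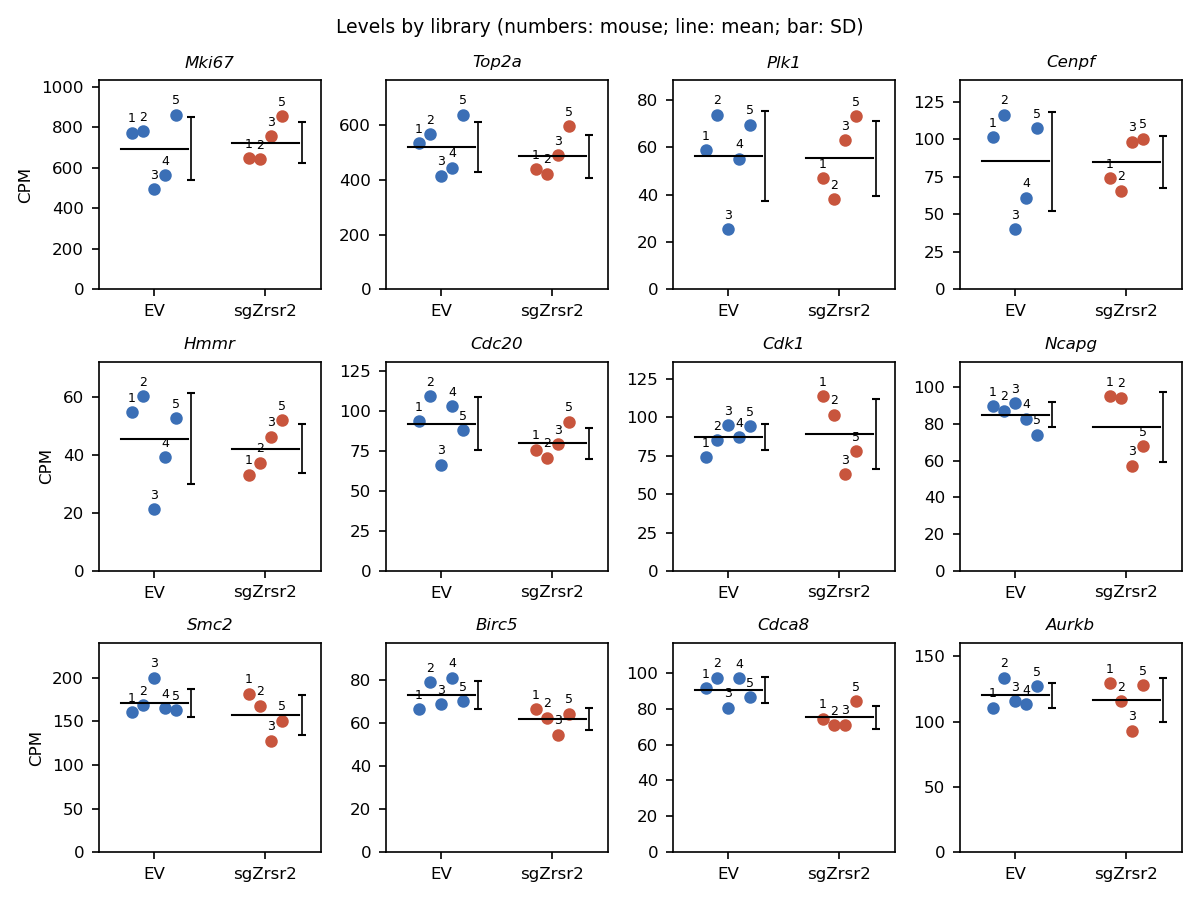
Level in CPM of selected mitotic genes in each library, with EV and sgZrsr2 as separate columns of points and the group mean and SD marked (n = 5 and 4). Birc5 and Cdca8 have lower means in sgZrsr2, but the groups of Cdca8 overlap and those of Birc5 are only narrowly apart. Mki67, Cdk1 and Plk1 also overlap between the groups.

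Of the 6 spindle motors and microtubule proteins 5 were below 0, with a median of -0.08. Kif11, the Eg5 motor that pushes the spindle poles apart, was at 149, 159, 128, 120.2 and 159 CPM in EV and at 146, 122, 137 and 163 CPM in sgZrsr2. Its lowest library was EV mouse 4 and its highest sgZrsr2 mouse 5 (log2 fold change -0.013, SE 0.13, adjusted p = 0.982). Tpx2, which activates Aurora A on the spindle, was at 129, 145, 100.1, 118 and 120.5 CPM in EV and at 104, 99.3, 98.3 and 122 CPM in sgZrsr2. For Tpx2, sgZrsr2 mice 2 and 3 and EV mouse 3 lay close together at the bottom of the range (log2 fold change -0.21, SE 0.12, adjusted p = 0.728). Kif2c, Kif4, Nusap1 and Hmmr had log2 fold changes between -0.11 and 0.0074, the latter that of Kif4, which was -0.00098 with upper-quartile scaling.

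Midzone and cytokinesis genes were below 0 in 4 of 5 cases, with a median of -0.06. Kif20a, the midzone motor MKLP2, was at 71.3, 85.9, 47.9, 79.9 and 76.8 CPM in EV and at 58.1, 53.2, 55.3 and 73.2 CPM in sgZrsr2. Its lowest value was in EV mouse 3, and the other EV libraries were, with the exception of mouse 1, above all of sgZrsr2 (log2 fold change -0.27, SE 0.17, adjusted p = 0.728). It was -0.39 without EV mouse 3 and -0.20 without EV mouse 2. Anln, the contractile ring scaffold anillin, was at 61.5, 61.8, 33.3, 46.1 and 60.6 CPM in EV and at 52.9, 42.7, 54.7 and 63.1 CPM in sgZrsr2, with the groups interleaved above a low EV mouse 3 (log2 fold change 0.021, SE 0.19, adjusted p = 0.982). Kif23, Prc1 and Ect2 had log2 fold changes of -0.10, -0.028 and -0.059.

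The 7 condensin and chromosome structure genes were below 0 in 6 cases, with a median of -0.13, and held the most abundant transcripts. Mki67, which coats mitotic chromosomes and is the usual proliferation marker, was at 772, 781, 495, 563 and 861 CPM in EV and at 646, 642, 754 and 854 CPM in sgZrsr2. Its lowest and highest libraries, mice 3 and 5, were both in EV (log2 fold change 0.061, SE 0.18, adjusted p = 0.936). The 95% confidence interval of -0.33 to 0.45 on the log2 scale covers both a fall and a rise. Top2a, the topoisomerase that untangles sister chromatids, was at 534, 566, 414, 445 and 636 CPM in EV and at 438, 422, 490.02 and 595 CPM in sgZrsr2, with the same lowest and highest libraries (log2 fold change -0.093, SE 0.15, adjusted p = 0.886). Among the condensin subunits, Smc4 was at 327, 302, 293, 281 and 253 CPM in EV and at 273, 295, 229 and 241 CPM in sgZrsr2, lowest in sgZrsr2 mouse 3 (log2 fold change -0.17, SE 0.11, adjusted p = 0.742, and log2 fold change -0.11 without that library). Its partner Smc2 was at 161, 169, 199.9, 165 and 163 CPM in EV and at 182, 168, 128 and 151 CPM in sgZrsr2, with EV mouse 3 the highest of all and sgZrsr2 mouse 3 the lowest (log2 fold change -0.13, SE 0.12, adjusted p = 0.805). Ncapg, a condensin I subunit, was at 89.6, 87.0, 91.2, 82.7 and 74.1 CPM in EV and at 94.9, 94.2, 57.2 and 67.6 CPM in sgZrsr2. For Ncapg the sgZrsr2 group was split, with mice 1 and 2 at the top of all libraries and mice 3 and 5 at the bottom (log2 fold change -0.11, SE 0.16, adjusted p = 0.855). The other condensin subunits, Ncapd2 and Ncaph, had log2 fold changes of -0.13 and -0.15.

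The libraries of a group differed from each other by more than the group means did. The mean log2(CPM + 0.5) of the 42 genes stood at 6.44, 6.57, 6.02, 6.28 and 6.42 for EV and at 6.30, 6.21, 6.15 and 6.37 for sgZrsr2. EV mouse 3 was the lowest and EV mouse 2 the highest of all 9, and the 4 sgZrsr2 libraries lay between them. By gene, EV mouse 2 was the highest of the 9 libraries in 28 of 42 (against 5.57% of all genes). EV mouse 3 was the lowest of the 9 in 21 (against 22%), and sgZrsr2 mouse 3 in 14 (against 20.9%). Within their groups, EV mouse 3 was the lowest EV library in 27 of 42 (64.3%, against 33.2% of all genes) and sgZrsr2 mouse 3 the lowest sgZrsr2 library in 21 (50%, against 29.4%).

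**Figure D4:**
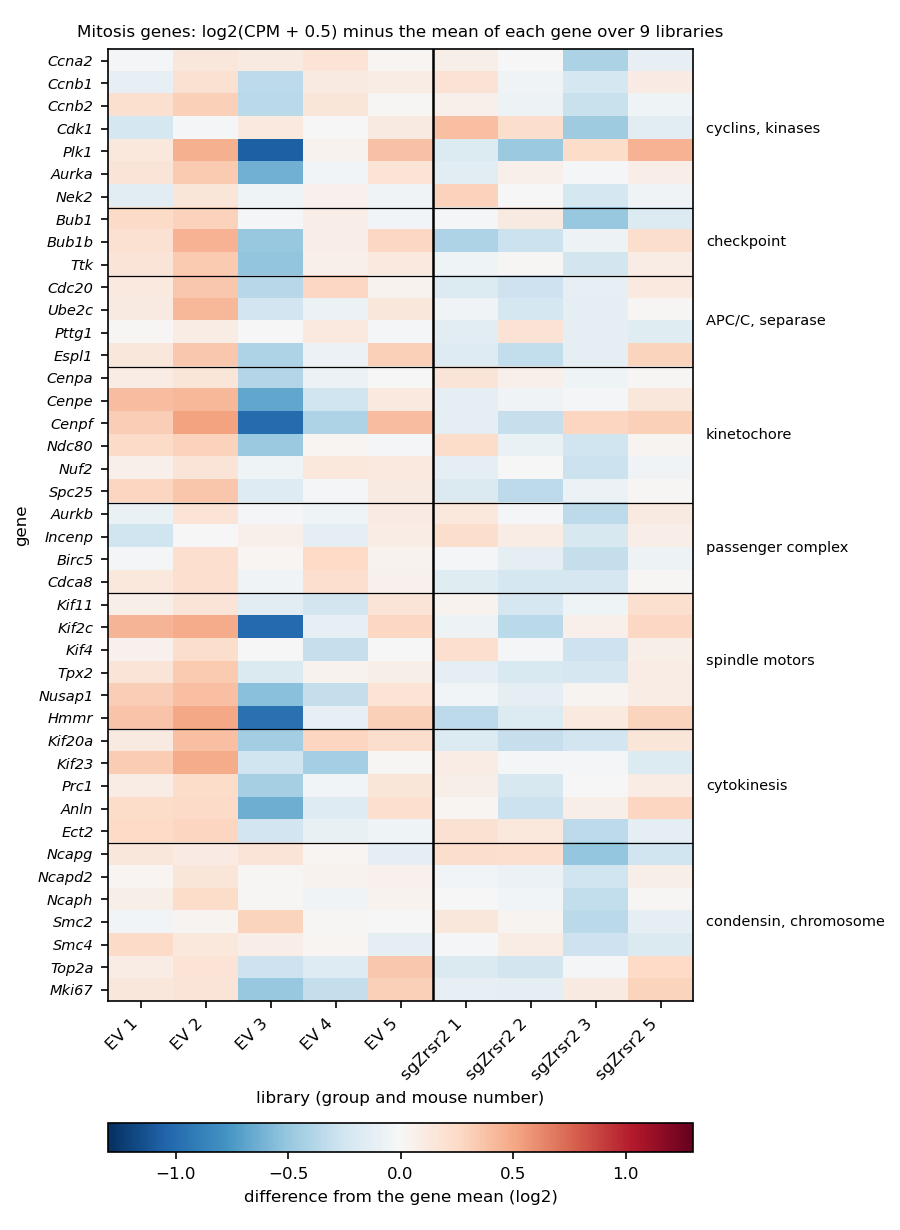
Level of each of the 42 genes in each library, as log2(CPM + 0.5) minus the mean of the gene over the 9 libraries, ordered by role. EV mouse 3 is low for most kinetochore, checkpoint and cytokinesis genes, and sgZrsr2 mouse 3 is low for condensin subunits, Cdk1 and Ccna2.

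The 2 low libraries shared some of their low genes and differed in others. Of the 42, 9 were at their lowest of the group in both, 18 in EV mouse 3 alone, 12 in sgZrsr2 mouse 3 alone and 3 in neither. Among the shared genes, Ect2 was at 77.8% and 74.8% and Ccnb1 at 74.3% and 80.1% of the mean of the other libraries of the group. EV mouse 3 was furthest down in Plk1 and in several spindle and kinetochore genes, which were chosen for description after their values were seen. Plk1 was at 39.5% of the mean of the other EV libraries there, Kif2c, a kinesin that takes apart microtubules at the centromere, at 39.9%, Hmmr, a spindle pole protein, at 41.3% and Cenpf, a large outer kinetochore protein, at 41.7%. Cenpe, the kinetochore motor, stood at 54.2%, Aurka, the centrosomal Aurora kinase, at 57.2% and Anln at 57.9%. In the same library Cdk1 was at 111%, Ncapg at 109%, Smc2 at 122%, Ccna2 at 102% and Incenp at 109.7% of the other EV mean. In sgZrsr2 mouse 3 other genes were low, with Cdk1 at 64.4%, Ncapg at 66.8%, Bub1 at 72.2%, Aurkb at 74.7% and Ccna2 at 75.8% of the mean of the other sgZrsr2 libraries. There Plk1 was at 119%, Cenpf at 123%, Hmmr at 113% and Kif2c at 106.5%. The genes that were lowest of EV in EV mouse 3 had exon lengths from 1531 bases for Ccnb2 to 15433 bases for Cenpf. The part of exon length was not tested.

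**Figure D5:**
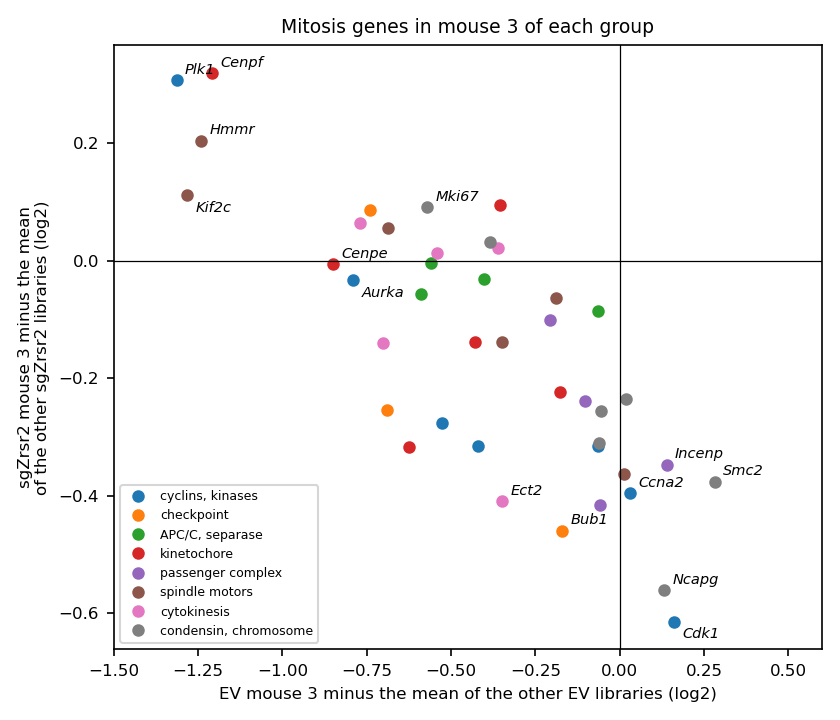
For each of the 42 genes, the log2 level in EV mouse 3 minus the mean of the other EV libraries (x axis) against the log2 level in sgZrsr2 mouse 3 minus the mean of the other sgZrsr2 libraries (y axis). Plk1, Kif2c, Hmmr and Cenpf lie far left and above 0, and Cdk1, Ncapg and Smc2 lie right of 0 and below it.

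The ratio of Plk1 to Cdk1 within a library, which does not depend on how libraries are scaled, came to 0.792, 0.866, 0.267, 0.633 and 0.737 for EV and to 0.413, 0.374, 0.999 and 0.936 for sgZrsr2. It was lowest in EV mouse 3, and the sgZrsr2 group fell into a low pair, mice 1 and 2, and a high pair, mice 3 and 5. This ratio was chosen after the values were seen. The high sgZrsr2 pair was also the pair with erythroid transcripts, and the low pair had the fewest counts, 23238264 and 25857723. The part of either in the ratio was not tested. In EV, the library with erythroid transcripts, mouse 5, had a ratio within the range of the other EV libraries.

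Other mitosis genes and the DNA replication genes gave a reading of the same libraries with other transcripts. All 99 other mitosis genes were found and tested, 6 of them through their current symbol. Of these, 60 were below 0 (60.6%, against 51.5% of all genes) and 39 above, with a median of -0.07. At an unadjusted p under 0.05, 7 were lower (7.07%, against 2.98% of all genes) and 0 higher (against 3.87%). In 3, every sgZrsr2 library was below every EV library (3.03%, against 1.32%). Of the 9 libraries, sgZrsr2 mouse 3 was the lowest in 48 of the 99 and EV mouse 3 in 34 (against 20.9% and 22% of all genes). The smallest p were those of Spc24, given above, Zwilch, a checkpoint protein of the RZZ complex, and Cenpm, a centromere protein. Zwilch was at 52.1, 57.0, 45.9, 60.8 and 45.8 CPM in EV and at 45.9, 44.0, 34.2 and 43.2 CPM in sgZrsr2, with the groups overlapping (log2 fold change -0.32, SE 0.13, adjusted p = 0.714). Cenpm was at 26.6, 27.6, 28.4, 33.7 and 27.7 CPM in EV and at 26.1, 21.6, 16.9 and 24.3 CPM in sgZrsr2, without overlap (log2 fold change -0.37, SE 0.15, adjusted p = 0.714). In all 3 genes sgZrsr2 mouse 3 was the lowest library.

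Of 44 DNA replication genes, 39 were below 0 (88.6%, against 51.5% of all genes) and 5 above, with a median of -0.18. At an unadjusted p under 0.05, 3 were lower (6.82%, against 2.98%) and 0 higher (against 3.87%). Of the 9 libraries, sgZrsr2 mouse 3 was the lowest in 40 of the 44 (against 20.9% of all genes). Its mean log2 level of these genes was 6.22. The other sgZrsr2 libraries stood at 6.85, 6.81 and 6.71, within the EV range of 6.66 to 6.96. Rfc4, a subunit of the clamp loader, was at 31.7, 37.5, 44.5, 46.1 and 35.2 CPM in EV and at 33.6, 32.4, 21.8 and 28.8 CPM in sgZrsr2 (log2 fold change -0.42, SE 0.16, adjusted p = 0.714). Cdc45, a part of the replicative helicase, was at 49.4, 47.9, 55.4, 58.2 and 53.4 CPM in EV and at 37.2, 40.7, 39.6 and 54.1 CPM in sgZrsr2 (log2 fold change -0.30, SE 0.13, adjusted p = 0.714). Rpa3, a subunit that binds single-stranded DNA, was at 20.2, 20.9, 19.4, 26.4 and 19.7 CPM in EV and at 19.0, 17.8, 13.0 and 17.0 CPM in sgZrsr2 (log2 fold change -0.35, SE 0.16, adjusted p = 0.714). The groups overlapped for Rfc4 and Cdc45 and not for Rpa3. No gene of either list passed an adjusted p of 0.05.

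The mouse 3 libraries also differed from each other in the replication genes. EV mouse 3 was the lowest EV library in 5 of the 44 (11.4%, against 33.2% of all genes) and the highest in 20 (against 29.1%), with a median difference of 0.19 on the log2 scale from the mean of the other EV libraries. In the mitotic genes that median was -0.37. sgZrsr2 mouse 3 was the lowest sgZrsr2 library in 41 of the 44 (93.2%, against 29.4%), with a median difference of -0.56, where the mitotic genes had -0.14. At the median, EV mouse 3 thus had the 42 mitotic genes lower and the replication genes higher than the other EV libraries. sgZrsr2 mouse 3 had both lower. In the 99 other mitosis genes the median was -0.17 for EV mouse 3 and -0.25 for sgZrsr2 mouse 3. There EV mouse 3 was the lowest EV library in 46.5% (against 33.2%) and the highest in 25 (against 29.1%). sgZrsr2 mouse 3 was the lowest sgZrsr2 library in 68.7% of them (against 29.4%). Neutrophil and monocyte markers had a mean log2 level of 3.11 in EV mouse 3 and 4.04 in sgZrsr2 mouse 3, against 1.74 to 3.98 in the other 7 libraries, and the erythroid mean was 0.91 and 4.11. The TMM factors of these 2 libraries were 0.894 and 1.07, the lowest and the highest of the 9. The part of these in the differences of the mouse 3 libraries was not tested.

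Left out together, the mouse 3 libraries changed the count of lower members at an unadjusted p under 0.05 from 2 to 5 of 42 (11.9%, against 3.53% of all genes in that fit), namely Bub1b, Cdc20, Spc25, Cdca8 and Kif20a. Without EV mouse 3 alone it was 9 (21.4%, against 3.25%), and without sgZrsr2 mouse 3 alone it was 0 (against 2.13%). Leaving out EV mouse 2 also gave 0 (against 2.43%). Without the 3 libraries with erythroid transcripts 1 member was lower, Cdca8 (2.38%, against 5.42% of all genes), and 1 was higher, Cdk1 (against 5.62%). No member passed an adjusted p of 0.05 in any of these fits.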

How the data were processed

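RNA of 9 sorted LSK samples, 5 EV and 4 sgZrsr2, was sequenced from polyadenylated libraries. The authors deposited RSEM expected counts per gene, not normalized; cutadapt 1.11, RSEM 1.2.30 and build GRCm38 are named in the submitters' processing notes. Aligner, annotation and strandedness are not given in the sources used here. The expected counts were rounded to whole numbers and filtered with filterByExpr (minimum count 10, minimum total 15), which kept 14944 of 38215 genes and 99.93% of the counts. edgeR 4.0.16 in R 4.3.3 compared the groups (TMM factors, quasi-likelihood test, Benjamini-Hochberg adjustment over all genes tested). SE is the log2 fold change divided by the square root of F, and intervals are 95%. Single values were also compared by two-sided exact permutation. The script was tested on simulated data.

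Named with full values were 18 members best known for their roles, the member of smallest p in each of the 8 roles, every member with unadjusted p under 0.05, Zrsr2, and the 3 smallest p of the other mitosis and of the replication genes. The members and lists were chosen with earlier results of these data known, and the lists were written from general knowledge. Exon lengths are merged exons of GENCODE M21, and promoters are RefSeq, GRCm38.p6. Alternatives were RLE and upper-quartile factors, other filters, robust dispersion, unrounded counts, DESeq2 1.42.0, limma 3.58.1 voom with quality weights, the mouse number as a block, an average of sgZrsr2 mice 1 and 2, and libraries left out.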

Additional observations from a re-analysis of the deposited data

Results flagged for a closer look

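In groups of 4 or 5 libraries, the highest or lowest library was examined for a gap to its nearest neighbour that is large beside the range of the group (Dixon's criterion). Of 130 such sets, 9 were singled out, where chance alone gives about 6.5. Among the mitotic genes, Pttg1 (securin) was at 11.92 CPM in sgZrsr2 mouse 2 where the rest of sgZrsr2 lay at 9.265 to 9.487 CPM. Ncapd2, a condensin subunit, was at 387.8 CPM in EV mouse 2 against 350.9 to 360.4 CPM in the other EV libraries. Smc2 was at 199.9 CPM in EV mouse 3 against 160.5 to 168.7 CPM. The mean log2 level of the 7 condensin and chromosome structure genes was 7.587 in sgZrsr2 mouse 3 against 7.8 to 7.828 in the other sgZrsr2 libraries. Outside the set, Cenpm was at 33.7 CPM in EV mouse 4 against 26.58 to 28.4 CPM, and Rpa3 was at 26.41 CPM there against 19.36 to 20.87 CPM. Zrsr2 was at 62.2 CPM in EV mouse 3 against 50.56 to 51.92 CPM. In EV mouse 5 the mean log2 level of erythroid markers was 2.865 against 0.9104 to 1.171 in the other EV libraries, and that of megakaryocyte markers was 2.707 against 1.37 to 1.711.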

How the results depend on the processing

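Under all 13 alternatives and with each of the 9 libraries left out, no member passed an adjusted p of 0.05, and the smallest such p was 0.156, for Cdca8 in limma-voom with quality weights. The main count of members lower at an unadjusted p under 0.05 was 2 (all genes 2.98%). It became 1 with no filter on low counts (all genes 2.71%) and 1 without the 3 libraries with erythroid transcripts (5.42%). It was 0 with sgZrsr2 mice 1 and 2 averaged (2.29%) and 5 without mouse 3 of both groups (3.53%). In limma-voom with quality weights it was 15 (8.73%), and with 1 library left out 0 to 9 (1.76% to 3.51%). In limma-voom EV mouse 3 had the lowest weight, 0.294, and EV mouse 2 the highest, 4.52. The mouse number as a replicate block gave 0 lower members, both in all 9 libraries and in the 4 shared numbers. Of all genes, 1.02% were lower in each of these block fits. The correlation of deviations from the group means was -0.307, -0.14 and -0.452 for the libraries numbered 1, 2 and 3 and 0.403 for those numbered 5; as not every pair was above 0.1 and no label ties the numbers together, they were not taken to pair the samples. In the block fit the unadjusted p of Cdca8 and Birc5 were 0.0924 and 0.146. Members higher at an unadjusted p under 0.05 numbered 1 without the 3 libraries with erythroid transcripts (all genes 5.62%). With any 1 library left out they numbered 0 (all genes 2.35% to 5.22%). Members whose groups do not overlap numbered 1 in the main analysis (all genes 3.06%). They numbered 0 with RLE factors (3.05%), no filter (2.3%), a filter of 1 CPM in 4 libraries (3.2%) and DESeq2 (2.3%). Without the 3 libraries with erythroid transcripts they numbered 6 (14.3%, against 23.2% of all genes). Without mouse 3 of both groups they numbered 2 (4.76%, against 7.64%), and with 1 library left out 0 to 3 (all genes 3.58% to 7.1%). The 3 were without sgZrsr2 mouse 5 (7.14%, against 7.1% of all genes). The number of members below 0 was 31 to 39 under the alternatives and 22 to 39 with 1 library left out, and the median was -0.23 to -0.08 and -0.17 to -0.01. Leaving out mouse 3 of both groups was chosen after seeing the data. The cause of these shifts was not tested. Of the 42 members, 20 kept their direction throughout. With upper-quartile factors, Ccnb1 (-0.0015) and Kif4 (-0.00098) changed sign. With sgZrsr2 mice 1 and 2 averaged, Ccnb1 (-0.020), Cdk1 (-0.078), Plk1 (0.071), Nek2 (-0.039), Cenpf (0.068), Kif11 (0.0079) and Kif4 (-0.031) changed sign. With limma-voom and quality weights, Ccnb1 (-0.051), Cenpa (-0.016), Kif4 (-0.072), Anln (-0.23) and Mki67 (-0.15) changed sign. With the mouse number as a replicate block in all 9 libraries, Plk1 (0.016) and Kif4 (-0.069) changed sign. With that block in the 4 shared numbers, Plk1 (0.015) and Kif4 (-0.071) changed sign. Without the 3 libraries with erythroid transcripts, Ndc80 (0.040), Aurkb (0.060), Anln (-0.072), Ect2 (0.11), Ncapg (0.12), Smc2 (0.018) and Mki67 (-0.0082) changed sign. Without mouse 3 of both groups, Aurkb (0.033), Anln (-0.12), Ncapg (0.031), Smc2 (0.016) and Mki67 (-0.063) changed sign. With 1 library left out, these log2 fold changes took both signs: Ccnb1 (-0.073 to 0.082), Cdk1 (-0.11 to 0.17), Plk1 (-0.22 to 0.11), Aurka (-0.18 to 0.043), Nek2 (-0.10 to 0.094), Cenpa (-0.0039 to 0.13), Cenpe (-0.21 to 0.041), Cenpf (-0.19 to 0.13), Ndc80 (-0.16 to 0.028), Aurkb (-0.10 to 0.050), Kif11 (-0.088 to 0.049), Kif2c (-0.30 to 0.0015), Kif4 (-0.072 to 0.091), Nusap1 (-0.18 to 0.042), Hmmr (-0.30 to 0.0080), Kif23 (-0.20 to 0.030), Prc1 (-0.13 to 0.031), Anln (-0.11 to 0.11), Ect2 (-0.14 to 0.035), Ncapg (-0.23 to 0.010) and Mki67 (-0.043 to 0.15). The lowest count of any member in a library was 209.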
